A study of Mus musculus with 12 samples.

Results

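The genes described here make cholesterol and fatty acids or control that synthesis: 36 mouse genes chosen by name, in 3 arms of 19 sterol enzymes, 7 sterol regulators and traffic proteins, and 10 genes of fatty acid synthesis. All 36 were found by symbol among the 31017 symbols of the count table, and all 36 were among the 12079 genes with enough reads to be tested. The RNA came from 4T1, an established line of mouse breast carcinoma cells, kept for 4 days inside collagen I gels in medium with 2% serum. There were 4 groups of 3 libraries. The control group had received Cas9 with a control guide RNA and the ETV4 KO group Cas9 with a guide RNA against Etv4, an ETS family transcription factor. Both other groups were the same cells given the fibroblast growth factors FGF10 (25 ng/ml) together with FGF2, the latter at 40 ng/ml. Cas9 and nucleofection were thus common to all groups. Collagen was at either 1.2 mg/ml or, in other gels, 2.4 mg/ml, without a statement of the concentration behind any given library. Whether the ETV4 KO cells were a pool or 1 clone is not stated either. All ETV4 KO libraries carry the same extra tag, and if they are 1 clone, clone and genotype cannot be told apart. No label says that replicates came from separate cultures. A p-value here therefore reflects only how far these libraries differ from each other, a spread that may be technical.

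Cells build cholesterol from acetyl-CoA through mevalonate, isoprenoids, squalene and lanosterol, and build fatty acids from cytosolic acetyl-CoA through malonyl-CoA. Both routes are controlled by the SREBP transcription factors, which are held in the endoplasmic reticulum with SCAP and the INSIG proteins while sterols are plentiful and are released to the nucleus when sterols fall. SREBP2, from Srebf2, acts mainly on sterol genes, and SREBP1c, from Srebf1, mainly on fatty acid genes. Tumour cells often rely on their own lipid synthesis.

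In ETV4 KO cells most of the sterol enzymes that passed the test were higher than in control cells, while Srebf1 and 3 genes of the fatty acid arm were lower. Of the 19 sterol enzymes, 10 rose and 2 fell without FGF, and 11 rose and 2 fell with FGF. Among all genes tested, 22.5% were higher and 23.3% lower in ETV4 KO cells without FGF, and 18% were higher and 22.2% lower with FGF. The fatty acid arm had 1 gene higher and 3 lower of 10 in each condition, to be read against those shares. Srebf1, Acly and Fasn lie on chromosome 11, where 57% of tested genes were lower without FGF and 61.4% with FGF. Squalene synthase (Fdft1) had the highest fold change of the 36 without FGF, 1.78-fold, and lanosterol demethylase (Cyp51) the highest with FGF, 1.63-fold. Changes were thus moderate, and none of the 36 reached 2-fold.

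Library totals ran from 18229429 to 23193244 counts. The cells had epithelial RNA: 7 of 8 epithelial markers were detected in every library, with a summed level of 3896 to 5791 CPM (counts scaled to library size), and Krt5 had no count. Over ETV4 KO and control libraries without FGF these sums were 4316 to 5791 and 4953 to 5041 CPM, and with FGF 3896 to 3990 and 4953 to 5472 CPM. Summed markers stayed at or below 10.5 CPM for leukocytes, 15.3 for fibroblasts, 0.724 for endothelium and 0.431 for adipocytes, which also express lipid synthesis genes. The epithelial sum was thus lower in ETV4 KO libraries with FGF. Without FGF, ETV4 KO replicates 1 and 3 (4359 and 4316 CPM) lay below every control and replicate 2 above. The markers did not move alike: of 7 tested, 1 was higher and 3 lower in each condition, to be read against the shares of all genes above. Mean Krt19 was 52.7 CPM in control and 128 in ETV4 KO libraries without FGF, and Epcam 394 and 268. With FGF these were 50.2 and 89.2, and 426 and 301. The part of these markers in the results was not tested. Cidec and Lep of the adipocyte list and Dcn, Lum and Pdgfrb of the fibroblast list had no count. In bulk RNA, fewer cells of a type and less RNA per cell cannot be told apart. Etv4 RNA, which a small Cas9 lesion need not remove, was 162 to 168 CPM in control and 116, 159 and 116 CPM in ETV4 KO libraries without FGF. With FGF it was 155 to 173 CPM in control and 113 to 120 CPM in ETV4 KO libraries. ETV4 KO replicate 2 without FGF therefore lay near the control level of the targeted gene. For 35 of the 36 lipid genes this library also lay farther from the mean of replicates 1 and 3 than those 2 lay from each other. Its distance ran from -0.86 (Hsd17b7) to 0.61 (Mvd) on the log2 scale. Across the 36 genes that distance had a Spearman correlation of -0.43 with the length of a gene's exons and of 0.64 with their GC content. Over all tested genes the values were -0.47 and 0.51, as a description of 1 library. Values that this library moved most are given with and without it.

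Per length, the genes covered a wide range. In control cells without FGF the stearoyl-CoA desaturase Scd2 was the highest at 281 ± 8.74 RPKM (SD, n = 3), a level scaled to both exon length and library size. Acly, Insig1 and Hmgcs1 followed at 135 ± 1.31, 130.0 ± 2.19 and 128 ± 2.34 RPKM; Insig1 and Hmgcs1 did not differ beyond their spread. Fasn was at 107 ± 2.61 and Acat2 at 101 ± 4.70 RPKM. At the other end stood Acss2 at 3.34 ± 0.114 and the lysosomal cholesterol exporter Npc1 at 1.83 ± 0.155 RPKM. The median of the 36 genes was 35.2 RPKM in control and 42.6 in ETV4 KO cells, against 6.82 and 6.55 RPKM for all tested genes of known length.

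Upstream sequence is shown for 6 genes, to let the reader see the short elements that sterol-regulated promoters are known for. They are 4 sterol enzymes that rose in at least one condition and 2 fatty acid genes that fell. They do not stand for all raised enzymes. Cyp51, Mvk, Nsdhl and Msmo1 are not shown because their windows overlap annotated exons, and Fdft1 and Sqle had no RefSeq start. The calls of Mvd without FGF and Sc5d with FGF were lost under most other settings, as given below. RefSeq (GRCm38.p6) start sites were matched for 28 of the 36 genes, and the 250 bases before each start were searched on both strands. Capitals mark the sterol response element core TCACNCCA and the box CCAAT, which is bound by NF-Y and reads ATTGG on the other strand.
Hmgcs1, chr13:119690101-119690350, plus strand: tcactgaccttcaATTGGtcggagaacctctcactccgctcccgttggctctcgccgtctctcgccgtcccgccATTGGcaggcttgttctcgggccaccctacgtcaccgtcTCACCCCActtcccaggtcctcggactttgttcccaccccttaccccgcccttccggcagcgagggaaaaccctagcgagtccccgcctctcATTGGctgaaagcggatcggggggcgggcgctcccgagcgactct
Mvd, chr8:122443423-122443672, minus strand: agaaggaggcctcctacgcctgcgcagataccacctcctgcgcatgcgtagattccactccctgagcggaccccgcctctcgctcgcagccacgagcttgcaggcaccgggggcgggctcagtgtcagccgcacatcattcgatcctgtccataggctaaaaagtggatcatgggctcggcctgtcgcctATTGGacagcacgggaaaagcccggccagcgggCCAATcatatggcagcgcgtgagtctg
Ebp, chrX:8193513-8193762, minus strand: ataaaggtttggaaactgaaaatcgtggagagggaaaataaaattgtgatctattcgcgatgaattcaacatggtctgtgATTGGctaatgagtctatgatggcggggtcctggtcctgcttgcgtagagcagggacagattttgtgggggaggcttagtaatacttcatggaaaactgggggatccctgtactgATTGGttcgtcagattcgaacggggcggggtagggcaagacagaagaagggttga
Sc5d, chr9:42264301-42264550, minus strand: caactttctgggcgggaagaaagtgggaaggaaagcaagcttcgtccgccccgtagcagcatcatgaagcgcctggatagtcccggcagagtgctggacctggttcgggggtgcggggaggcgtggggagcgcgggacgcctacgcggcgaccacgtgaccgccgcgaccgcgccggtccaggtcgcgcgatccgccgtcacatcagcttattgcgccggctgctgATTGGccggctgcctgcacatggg
Acly, chr11:100528001-100528250, minus strand: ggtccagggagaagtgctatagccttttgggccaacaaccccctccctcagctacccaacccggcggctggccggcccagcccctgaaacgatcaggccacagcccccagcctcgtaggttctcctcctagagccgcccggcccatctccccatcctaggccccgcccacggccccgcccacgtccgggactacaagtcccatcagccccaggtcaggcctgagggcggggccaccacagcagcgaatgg
Fasn, chr11:120824548-120824797, minus strand: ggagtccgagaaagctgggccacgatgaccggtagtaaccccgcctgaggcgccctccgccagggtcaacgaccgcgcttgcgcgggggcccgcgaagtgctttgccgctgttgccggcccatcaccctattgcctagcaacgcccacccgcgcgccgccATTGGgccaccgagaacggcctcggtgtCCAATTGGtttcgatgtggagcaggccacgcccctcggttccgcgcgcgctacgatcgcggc
Hmgcs1 holds 1 sterol response element core, which begins 137 bases before the start, and 3 CCAAT boxes. Mvd and Ebp each hold 2 CCAAT boxes, and Sc5d holds 1, which begins 24 bases before its start. Acly holds neither element, and Fasn holds 3 CCAAT boxes, of which one pair on opposite strands overlap.

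Across the matched genes, a CCAAT box lay in 15 of 16 sterol enzymes (93.8%), 4 of 5 regulators (80%) and 2 of 7 fatty acid genes (28.6%). The share was 41% of the 9313 tested genes with a RefSeq start and 37.5% of all 27025 genes. Genes with a box included Ggps1, Tm7sf2 and Srebf1, which fell in both conditions. Acat2, which rose without FGF, had none. The sterol response element core lay in Hmgcs1, Msmo1 and Srebf2, 3 of 28 genes (10.7%), against 3.96% of tested genes. The E-box CACGTG was found in 17.9% of the 28 genes and 10.1% of tested genes, and the GC box GGGCGG in 78.6% and 65.6%. The ETS core CCGGAAG lay in 4 of 28 genes (14.3%) and in 16.5% of tested genes. Genes with several starts were counted once if any window held the motif, and different motifs overlapped 1 time in the 36 windows. A match is a run of letters, not a measured site.

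**Figure D1:**
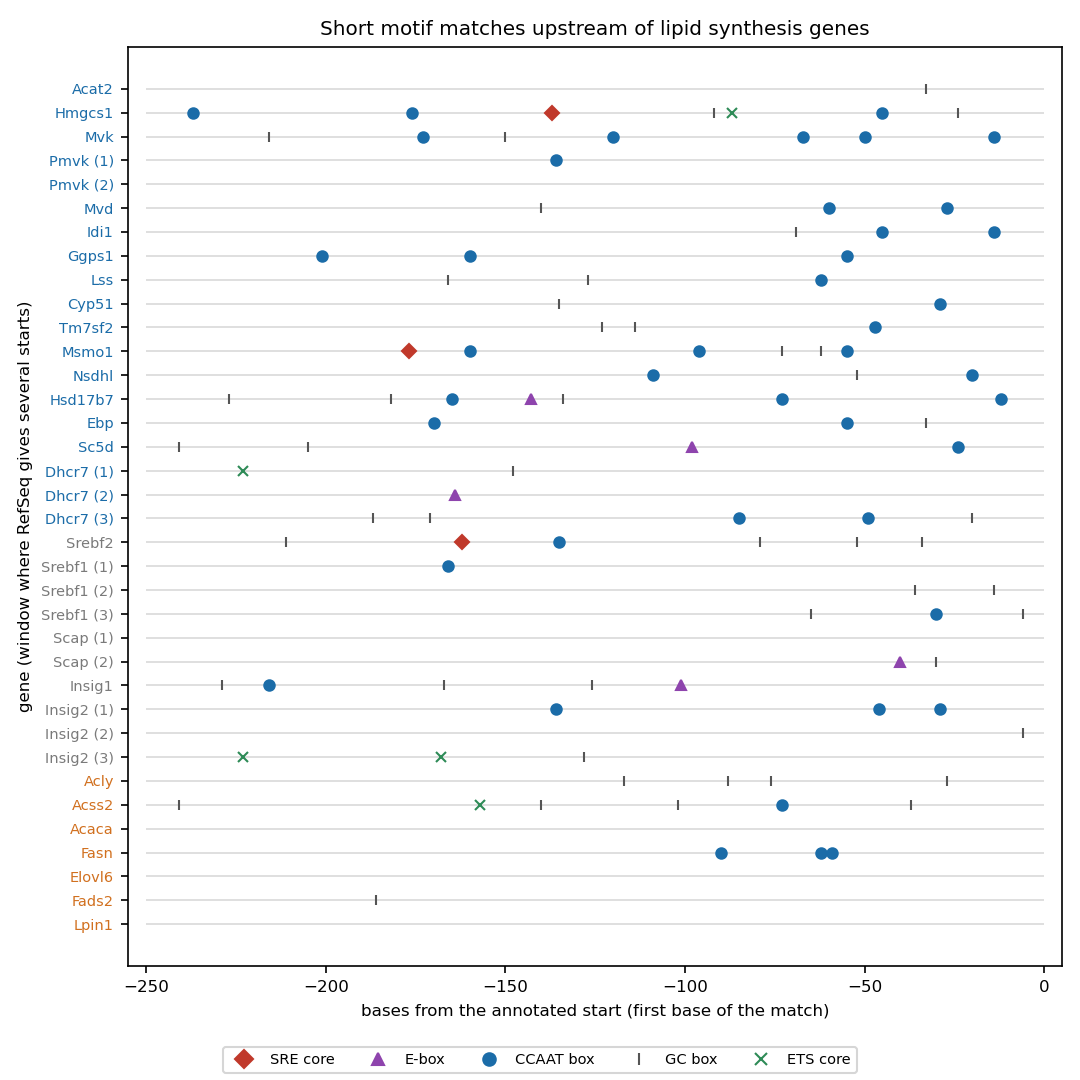
Motif matches in the 250 bases before each RefSeq start of 28 lipid synthesis genes. The x axis is the distance in bases of a match's first base from the start, each row is 1 start site, the symbols are the motif kinds, and gene names are blue for sterol enzymes, grey for regulators and orange for the fatty acid arm. CCAAT boxes stand in 15 of 16 sterol enzymes and 2 of 7 fatty acid genes.

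Without FGF, 45.8% of all genes tested differed between ETV4 KO and control cells, and of the 36 lipid genes 12 rose, 6 fell and 18 were not called. With FGF the background was 40.3%, and 14 rose, 6 fell and 16 were not called. The 18 and 20 genes called of 36 are to be read against those shares of all genes. The median log2 fold change of the 36 was 0.10 without and 0.15 with FGF, against -0.01 for all genes in both. In both conditions 10 of the 36 rose (Mvk, Fdft1, Sqle, Lss, Cyp51, Msmo1, Nsdhl, Ebp, Insig1 and Acss2). Another 6 fell in both (Ggps1, Tm7sf2, Srebf1, Acly, Fasn and Fads1). None was called in opposite directions. The share of all genes called alike in both conditions is not given here, so these counts have no background beside them. The comparisons without and with FGF share no library, but they share the estimate of spread. Libraries of the groups did not overlap for 22 of the 36 genes without FGF and 26 with FGF, where 53.6% and 61.4% of all tested genes were separate in this way.

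**Figure D2:**
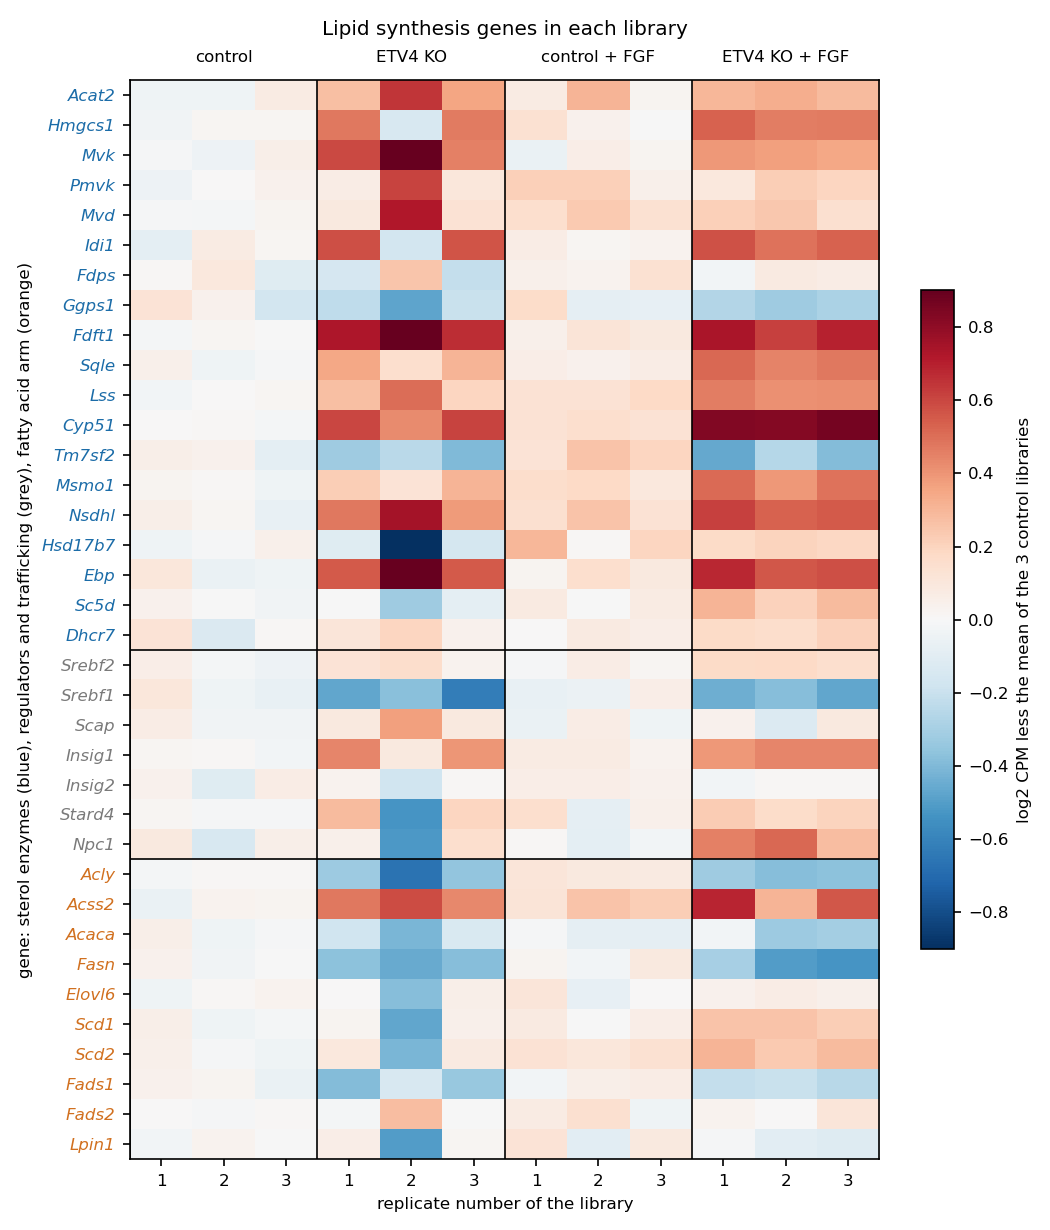
Level of each of the 36 genes in each of the 12 libraries, as log2 CPM less the mean of the 3 control libraries; rows run along the pathway, columns are libraries by group and replicate, and red is higher and blue lower than control. ETV4 KO replicate 2 differs from replicates 1 and 3 of its group, and Fdft1, Cyp51, Nsdhl and Ebp are red in all 6 ETV4 KO libraries.

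Among the early enzymes, Acat2 joins acetyl-CoA units and Hmgcs1 makes HMG-CoA. Hmgcs1 was at 577, 596 and 595 CPM in control libraries and at 820, 534 and 815 CPM in ETV4 KO libraries. Replicate 2 was the low library, below all controls, so the groups overlapped. The log2 fold change of Hmgcs1 was 0.29 ± 0.12 (SE) and not called (edgeR adjusted p = 0.0697), and 0.47 without replicate 2 (edgeR adjusted p = 1.95e-08). With FGF, Hmgcs1 was at 649, 605 and 587 CPM in control and 852, 809 and 814 CPM in ETV4 KO libraries, which did not overlap. Its log2 fold change there was 0.43 ± 0.12 (edgeR adjusted p = 0.0152), and the call was lost without control FGF replicate 2 (adjusted p = 0.0603) or 3 (0.0584) or ETV4 KO FGF replicate 1 (0.0517). Acat2 rose without FGF (0.43 ± 0.10, edgeR adjusted p = 0.00311) and was at 0.16 ± 0.10 with FGF, not called. It has a near-identical neighbour, Acat3, so its count is uncertain.

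The next enzymes turn mevalonate into isoprenoid units. Mevalonate kinase, Mvk, was at 83.9, 81.8 and 87.5 CPM in control and 128, 180.1 and 116 CPM in ETV4 KO libraries without FGF. All ETV4 KO libraries lay above all controls, and replicate 2 was the highest. The log2 fold change of Mvk was 0.74 ± 0.13 (edgeR adjusted p = 0.000435) without FGF and 0.36 ± 0.13 (0.0368) with FGF. That second call was lost under 9 of 23 other settings, which kept its direction (adjusted p up to 0.256). Idi1, the isomerase of isopentenyl diphosphate, was at 161, 180.4 and 174 CPM in control and 257, 153 and 254 CPM in ETV4 KO libraries. Replicate 2 lay below the controls while the others were well above. Idi1 was at 0.36 ± 0.15 and not called without FGF (edgeR adjusted p = 0.0572), 0.57 without replicate 2 (6.64e-09), and rose by 0.49 ± 0.15 with FGF (0.0170). That rise was not called without control FGF replicate 2 (adjusted p = 0.0639) or 3 (0.0511) or ETV4 KO FGF replicate 1 (0.0537). Mvd, the decarboxylase, was at 106, 105 and 109 CPM in control and 113, 176 and 117 CPM in ETV4 KO libraries. Its call without FGF (0.34 ± 0.13, edgeR adjusted p = 0.0471) was lost without replicate 2 (0.11, adjusted p = 0.102) and under 15 of 23 other settings in all, and with FGF it was at 0.02. Phosphomevalonate kinase, Pmvk, was not called in either condition (0.28 ± 0.12 and 0.01 ± 0.12), and without replicate 2 the first value was 0.08.

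At the branch point, farnesyl diphosphate synthase, Fdps, was not called (-0.03 in both conditions), although without ETV4 KO replicate 2 it was at -0.19 without FGF (edgeR adjusted p = 0.0409). Another gene model shares 1124 bases of exon with Fdps on the same strand, so its count is uncertain. Ggps1, which takes farnesyl diphosphate away from sterols to make geranylgeranyl diphosphate for protein prenylation, fell in both conditions (-0.30 ± 0.11 and -0.30 ± 0.11, edgeR adjusted p = 0.0340 and 0.0380). Ggps1 was not called under 5 and 9 of 23 other settings, among them without control replicate 1 (adjusted p = 0.139) or 2 (0.0962) in the first comparison.

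Squalene synthase, Fdft1, commits farnesyl diphosphate to sterols. Its level was 245, 251 and 247 CPM in control and 411, 519 and 393 CPM in ETV4 KO libraries, and with FGF 256, 269 and 264 against 413, 380 and 400.3 CPM. No ETV4 KO library overlapped a control library in either condition. Fdft1 changed by a log2 fold of 0.83 ± 0.09 without FGF (edgeR adjusted p = 1.16e-05) and 0.60 ± 0.09 with FGF (0.000184), and it was called under all 23 other settings of each comparison. Fdft1 (ENSMUSG00000021273, chr14:63145150-63179578 in mm10) shares 774 bases of exon with Ctsb on the opposite strand, and the strand setting of the counting is not given in the labels. Sqle, the squalene epoxidase, rose by 0.27 ± 0.07 and 0.43 ± 0.07 on the log2 scale (edgeR adjusted p = 0.00433 and 0.000192), the first not called in a fit of the compared libraries alone (0.0760). Lss, which closes the ring to lanosterol, rose by 0.33 ± 0.08 and 0.28 ± 0.08 (0.00360 and 0.00902).

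Cyp51, which removes the first methyl group of lanosterol, was at 306, 307 and 300.3 CPM in control and 462, 410 and 465 CPM in ETV4 KO libraries. With FGF it was at 333, 339 and 333 against 542, 540.3 and 552 CPM. ETV4 KO and control libraries were separate in both conditions. Cyp51 rose by 0.55 ± 0.06 on the log2 scale (edgeR adjusted p = 1.6e-05) and by 0.70 ± 0.06 (1.81e-06), called under all 23 other settings of each. Cyp51 lies at chr5:4081145-4104746 (mm10).

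Of the later enzymes, Nsdhl, Ebp and Msmo1 rose in both conditions. Nsdhl, a sterol dehydrogenase, was at 115, 112 and 106 CPM in control and 154, 186 and 145 CPM in ETV4 KO libraries. Ebp, the sterol isomerase, was at 31.2, 27.9 and 28.3 against 42.8, 58.9 and 42.7 CPM. In both genes every ETV4 KO library was above every control, and replicate 2 was the highest. Nsdhl changed by 0.54 ± 0.09 and 0.39 ± 0.09 (edgeR adjusted p = 0.000354 and 0.00380) and Ebp by 0.72 ± 0.12 and 0.52 ± 0.12 (0.000262 and 0.00284). Msmo1, the sterol methyl oxidase, rose by 0.22 ± 0.07 and 0.32 ± 0.07 (0.0157 and 0.00178); without FGF that call was lost when control replicate 3 or ETV4 KO replicate 3 was left out (adjusted p = 0.0615 in both).

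Not every enzyme after lanosterol was higher. Tm7sf2, a sterol reductase, was at 31.8, 31.6 and 28.9 CPM in control and 24.5, 25.9 and 23.3 CPM in ETV4 KO libraries, and with FGF at 33.4, 36.8 and 35.2 against 22.3, 25.7 and 23.4 CPM. All ETV4 KO libraries were below all controls. Tm7sf2 changed by -0.33 ± 0.09 on the log2 scale (edgeR adjusted p = 0.00723) and -0.56 ± 0.08 (0.000176). Tm7sf2 shares 532 bases of exon with Vps51 on the same strand, so reads there may be split or dropped. Hsd17b7, a sterol ketoreductase, was at 107, 109 and 113 CPM in control and 102, 54.9 and 98.4 CPM in ETV4 KO libraries, so replicate 2 was far below both other libraries. Hsd17b7 was not called in either condition (-0.36 ± 0.17 and 0.01 ± 0.17), and without replicate 2 the first value was -0.13. Sc5d, the sterol desaturase, was at -0.13 ± 0.08, not called, without FGF (-0.04 without replicate 2) and rose by 0.22 ± 0.08 with FGF (edgeR adjusted p = 0.0474), a call lost under 14 of 23 other settings. Dhcr7, the last reductase of the route, was not called (0.11 ± 0.08 and 0.13 ± 0.08).

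**Figure D3:**
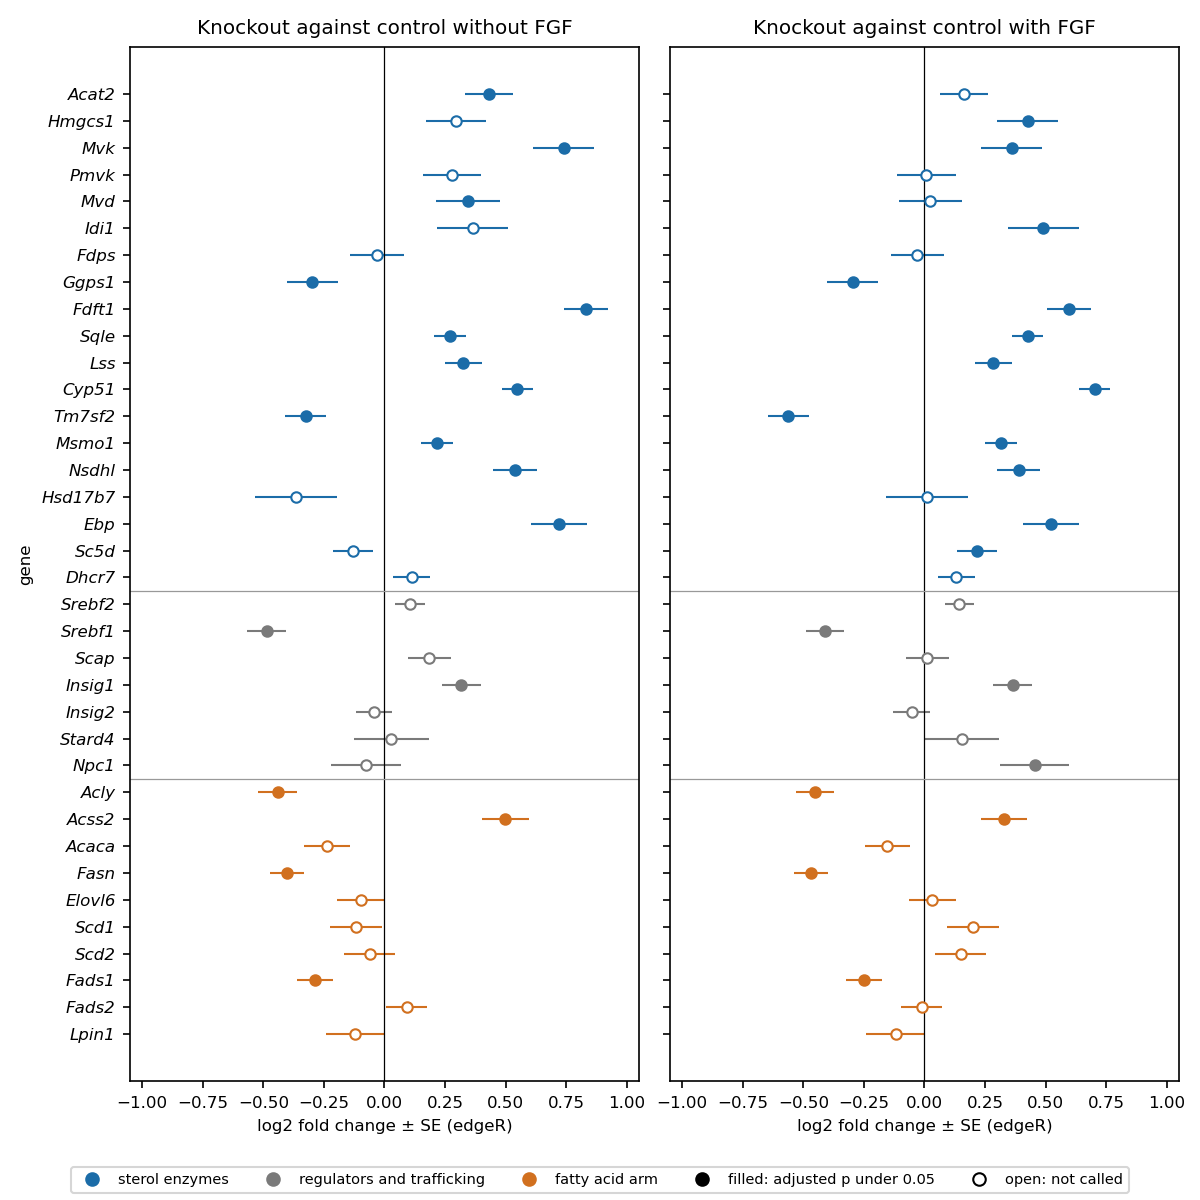
The log2 fold change of each of the 36 genes in ETV4 KO against control cells without FGF (left) and with FGF (right), with bars of 1 SE, from edgeR; filled points passed an adjusted p of 0.05 and open points did not, and colours are the arms. Blue points lie mostly right of 0, while Acly, Fasn and Fads1 lie left of 0 in both panels.

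The regulators did not move as 1 group. Of 7, 1 rose and 1 fell without FGF, and 2 rose and 1 fell with FGF. Srebf1 was at 172, 156 and 153 CPM in control and 116, 123 and 104 CPM in ETV4 KO libraries, and with FGF at 153, 155 and 167 against 118, 123 and 116 CPM. The groups were apart in both conditions. Srebf1 changed by -0.49 ± 0.08 on the log2 scale (edgeR adjusted p = 0.000297) and -0.41 ± 0.08 (0.00112). Counts per gene do not separate the SREBP1a and SREBP1c transcripts. Srebf2 was at 349, 331 and 324 CPM in control and 364, 373 and 342 CPM in ETV4 KO libraries, which overlapped. It was not called (0.11 ± 0.06 and 0.14 ± 0.06, edgeR adjusted p = 0.173 and 0.0755). The CPM ratio of Srebf1 to Srebf2 was 0.443 to 0.494 in the 6 control libraries and 0.305 to 0.331 in the 6 ETV4 KO libraries. Insig1, a retention protein whose own gene is a known SREBP target, was at 407, 405 and 394 CPM in control and 546, 428 and 528 CPM in ETV4 KO libraries. Replicate 2 was nearest to the controls, but the groups did not overlap. Insig1 rose by 0.32 ± 0.08 and 0.36 ± 0.08 (edgeR adjusted p = 0.00610 and 0.00284), the first not called in a fit of the compared libraries alone (0.0866). Its paralog Insig2 was not called (-0.04 and -0.05), nor was Scap, the SREBP escort protein (0.18 ± 0.09 and 0.01 ± 0.09). Without replicate 2, Insig2 was at 0.02 and Scap at 0.09 in the comparison without FGF. The CPM ratio of Insig1 to Insig2 was 7.01 to 8.15 in control and 9.01 to 10.1 in ETV4 KO libraries.

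Of the traffic proteins, the sterol carrier Stard4 was at 145, 141 and 142 CPM in control and 174, 98.7 and 163 CPM in ETV4 KO libraries. Replicate 2 was again below the controls and the other two above. Stard4 was not called (0.03 ± 0.15 and 0.15 ± 0.15), and without replicate 2 it was called at 0.24 (edgeR adjusted p = 0.00186) without FGF. Npc1 was at -0.08 ± 0.14, not called, without FGF (0.10 without replicate 2) and rose by 0.46 ± 0.14 with FGF (edgeR adjusted p = 0.0206). With FGF its levels were 20.9, 19.4 and 20.3 CPM in control and 28.3, 29.7 and 25.2 CPM in ETV4 KO libraries, and the call was lost when any of 4 of these 6 libraries was left out (adjusted p = 0.0551 to 0.0774). Npc1 shares exon bases with Rmc1 on the opposite strand.

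In the fatty acid arm, ATP citrate lyase (Acly) and acetyl-CoA synthetase (Acss2), which both supply cytosolic acetyl-CoA, moved in opposite directions. Acly was at 703, 714 and 715 CPM in control and 566, 448 and 556 CPM in ETV4 KO libraries, and with FGF at 768, 755 and 751 against 568, 545 and 550 CPM. Acss2 was at 32.6, 34.7 and 34.4 against 47.1, 51.1 and 45.7 CPM, and with FGF at 36.7, 40.6 and 39.5 against 54.6, 41.9 and 49.9 CPM. The groups of both genes were apart in both conditions. The log2 fold change of Acly was -0.44 ± 0.08 and -0.45 ± 0.08 (edgeR adjusted p = 0.000605 and 0.000569). For Acss2 it was 0.50 ± 0.10 and 0.33 ± 0.10 (edgeR adjusted p = 0.00100 and 0.0151). The second Acss2 call was lost without ETV4 KO FGF replicate 1 (adjusted p = 0.0840) or 3 (0.0513) or control FGF replicate 1 (0.0660). The CPM ratio of Acly to Acss2 ran from 18.6 to 21.6 in the 6 control libraries. It was 8.76 to 12.2 in the ETV4 KO libraries without FGF and 10.4 in the lowest of those with FGF, and all 6 lay below every control. Acss2 overlaps Ggt7 and Gss on the opposite strand.

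Fasn, the fatty acid synthase, was at 1196, 1140 and 1160 CPM in control and 903, 851 and 893 CPM in ETV4 KO libraries. With FGF it was at 1184, 1147 and 1239 against 947, 824 and 807 CPM, so the groups were apart in both. Fasn changed by -0.40 ± 0.07 on the log2 scale and -0.47 ± 0.07 (edgeR adjusted p = 0.000453 and 0.000147), called under all 23 other settings of each. Acaca, the acetyl-CoA carboxylase that makes malonyl-CoA, was at 152, 142 and 145 CPM in control and 129, 110.1 and 133 CPM in ETV4 KO libraries, which did not overlap. It was not called (-0.24 ± 0.09 and -0.15 ± 0.09, edgeR adjusted p = 0.0524 and 0.209). Without FGF it was called lower under 8 of 23 other settings, among them DESeq2 (adjusted p = 0.0492) and limma-voom (0.0460), and it was at -0.16 without replicate 2 (0.0644). Fads1, a desaturase of polyunsaturated fatty acids, was at 118, 117 and 110 CPM in control and 87.7, 104 and 90.7 CPM in ETV4 KO libraries. It fell by 0.29 ± 0.07 and 0.25 ± 0.07 on the log2 scale (edgeR adjusted p = 0.00660 and 0.0158). The second call was lost without control FGF replicate 3 (adjusted p = 0.0552) or ETV4 KO FGF replicate 3 (0.0581). Its neighbour Fads2 was not called (0.09 ± 0.08, or -0.01 without replicate 2, and -0.01 ± 0.08).

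Elovl6, which lengthens palmitate, Lpin1, a phosphatidate phosphatase, and the desaturases Scd1 and Scd2 were not called. Without FGF these 4 genes were at -0.10, -0.12, -0.12 and -0.06 in that order, and without replicate 2 at 0.03, 0.04, 0.03 and 0.09. Scd2 was at 1588, 1526 and 1495 CPM in control and 1638, 1155 and 1625 CPM in ETV4 KO libraries, so replicate 2 alone was below the controls. With FGF, Scd2 was at 1685, 1651 and 1691 against 1894, 1808 and 1871 CPM, which did not overlap (0.15 ± 0.10, edgeR adjusted p = 0.281; 0.00191 without ETV4 KO replicate 2, a library of neither group that shares the estimate of spread). Scd1 was at 0.20 ± 0.11 with FGF (0.161, and 0.000701 without that library). The CPM ratio of Scd1 to Scd2 was 0.122 to 0.133 in all 12 libraries. Scd1 and Scd2 are close paralogs, and how reads that fit both were counted is not given in the sources used here.

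Averaged over each arm, log2 CPM less the control mean was 0.21 to 0.27 for the sterol enzymes in ETV4 KO libraries, against -0.01 to 0.02 in controls. With FGF it was 0.31 to 0.33 in ETV4 KO and 0.09 to 0.12 in control libraries. No library of one genotype overlapped the other in either condition. The fatty acid arm was at -0.26 to -0.06 in ETV4 KO libraries without FGF, with replicate 2 lowest, against -0.007 to 0.010 in controls. With FGF the genotypes overlapped in this arm, at -0.063 to 0.044 in ETV4 KO and 0.037 to 0.074 in control libraries. Sterol enzymes less fatty acid arm came to 0.27 to 0.53 in the 6 ETV4 KO libraries and -0.01 to 0.08 in the 6 control libraries. The median log2 fold change of the sterol enzymes was 0.29 without and 0.28 with FGF. That of the fatty acid arm was -0.12 without FGF, and 0.01 without replicate 2, where 5 of 10 genes were positive in place of 2. With FGF its median was -0.07.

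**Figure D4:**
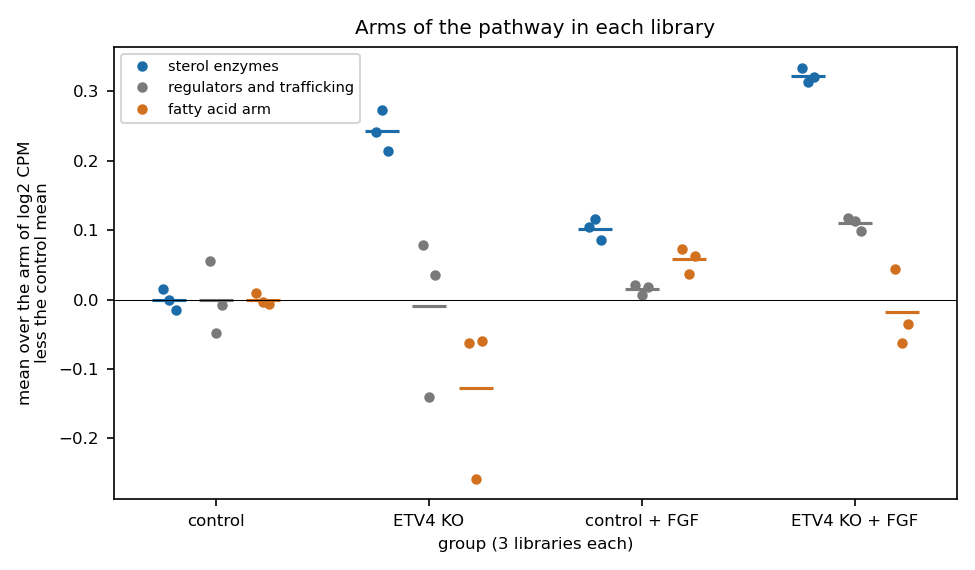
Mean over each arm of log2 CPM less the control mean, 1 point per library and a line at the mean of the 3 libraries of a group, by group on the x axis. Sterol enzymes are at 0.21 to 0.27 in ETV4 KO and 0.31 to 0.33 in ETV4 KO with FGF, above the control points.

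Some of these genes sit on chromosomes whose genes moved together. Srebf1, Acly, Acaca and Fasn all lie on chromosome 11, where 57% of 989 tested genes were lower in ETV4 KO cells without FGF and 61.4% with FGF. The median log2 fold change of that chromosome was -0.37 without and -0.41 with FGF. Against the median of up to 25 tested neighbours on each side, Fasn (chr11:120805846-120824547) differed by -0.01 and 0.04, Acly (chr11:100476353-100528000) by -0.10 and 0.01, and Srebf1 (chr11:60199089-60222581) by -0.20 and 0.01. Acaca lay 0.15 above its neighbours without FGF and 0.19 with FGF. With FGF, Fasn, Acly and Srebf1 lay 0.01 to 0.04 above theirs. Insig1 on chromosome 5 (-0.08 and 0.03 against neighbours) and Acat2 on chromosome 17 (0.04 and -0.14) were also near theirs. The sterol enzymes ranged widely. Cyp51 lay 0.58 and 0.61 above its neighbours, Fdft1 0.66 and 0.42, and Msmo1 0.49 and 0.47. Smaller distances were found for Mvk (0.43 and 0.18) and Ebp (0.46 and 0.17), which lay among raised neighbours, for Mvd (0.26 and 0.11) and for Fdps (0.09 and 0.13). Ggps1 (-0.25 and -0.24) and Dhcr7 (-0.27 and -0.16) lay below their neighbours in both conditions. Hsd17b7 (-0.29 and 0.11) and Sc5d (-0.13 and 0.26) did so without FGF only. Over the 19 sterol enzymes the median difference from neighbours was 0.38 without and 0.20 with FGF. Tm7sf2 (-0.73 and -0.92) and Fads1 (-0.57 and -0.41) lay below neighbours that were higher on average, all on chromosome 19. These differences are descriptions. Whether copy number or another regional feature has a part in them was not tested.

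**Figure D5:**
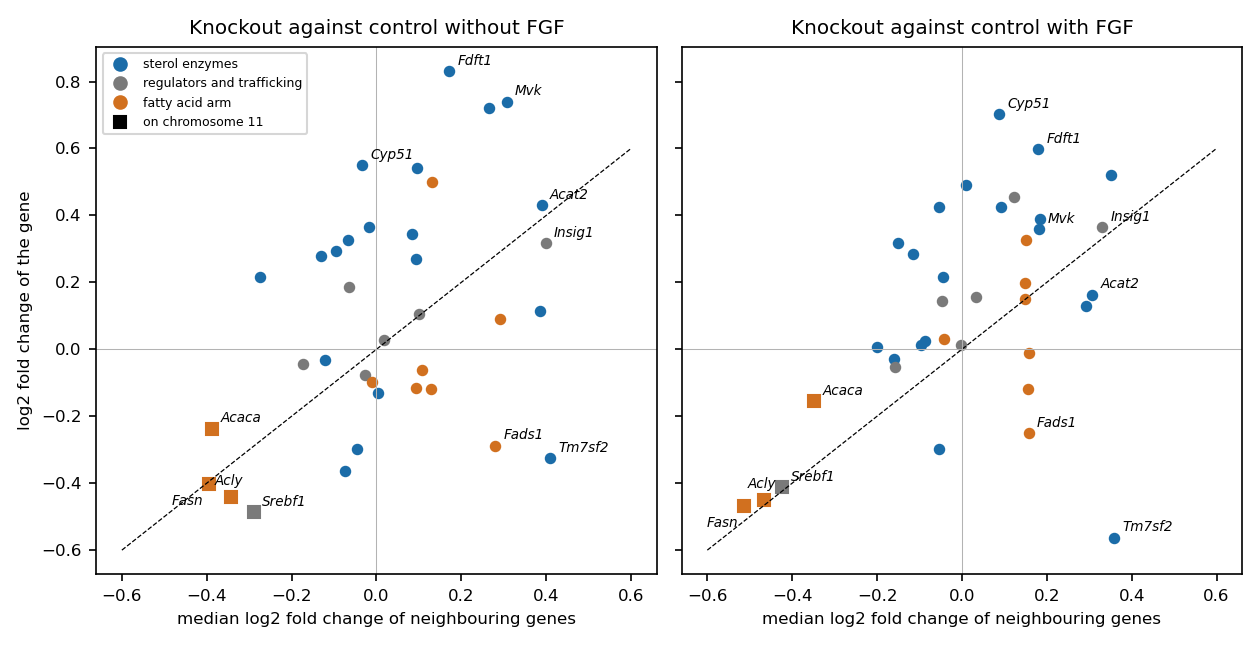
The log2 fold change of each gene against the median of up to 25 tested genes on either side of it, without FGF (left) and with FGF (right); the dashed line marks equal values, squares are genes on chromosome 11, and colours are the arms. Fasn, Acly and Srebf1 lie close to the line at the lower left with FGF, and Cyp51 and Fdft1 lie far above it.

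Adding FGF changed few of these genes. In control cells the edgeR test called 0 of 36, where 0.488% of all genes were called; 3 of the 36 had an unadjusted p under 0.05 (Cyp51, Tm7sf2 and Msmo1), and DESeq2 and limma-voom also called 0, with 5 and 3 under that unadjusted level. All 19 sterol enzymes had a log2 fold change above 0, from 0.002 to 0.19, with a median of 0.09. So did 9 of 10 genes of the fatty acid arm and 6017 of all 12079 genes tested. No sterol enzyme or fatty acid gene was called. The outermost 95% limits over the 36 genes were -0.37 and 0.56, from genes of unlike precision (SE 0.06 to 0.17). Changes of that size were thus not excluded for the least precise genes, and the intervals of others were narrower. In ETV4 KO cells 12 of the 19 sterol enzymes were above 0 and 7 below, from -0.37 to 0.55. There 2 of the 36 genes were called higher and none lower, where 2.42% of all genes were called and 1.47% were higher. Cyp51 rose by 0.29 ± 0.06 (edgeR adjusted p = 0.0282) and Sc5d by 0.40 ± 0.08 (0.0233). Without ETV4 KO replicate 2 the number was 9, with Sqle, Lss, Msmo1, Hsd17b7, Npc1, Scd1 and Scd2 added, where 7.76% of all genes were called. It was 7 with DESeq2 (6.3% of all genes) and 5 without ETV4 KO replicate 3 (3% of all genes), of which Mvk was lower. Without any 1 of the ETV4 KO FGF libraries it was 0.

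The difference between the ETV4 KO effects with and without FGF was called for 0 of 36 genes by edgeR, where 0.0166% of all genes were called, and by DESeq2 and limma-voom. Unadjusted p was under 0.05 for 2 genes with edgeR (Sc5d and Npc1) and for 3 with each of the other tools. The estimate was 0.35 ± 0.11 for Sc5d (edgeR adjusted p = 0.454) and 0.53 ± 0.20 for Npc1 (0.482). The outermost 95% limits over the 36 genes were -0.79 and 1.00 (SE 0.09 to 0.24), and no difference was called. Genes called in one condition alone (Acat2 and Mvd without FGF, and Hmgcs1, Idi1, Sc5d and Npc1 with FGF) are thus not shown to respond differently.

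Beyond the 36, lists of related genes were mixed, and their counts are to be read against the shares of all genes, 22.5% higher and 23.3% lower without FGF and 18% and 22.2% with FGF. Acat1, the mitochondrial thiolase, rose by 0.29 ± 0.09 without FGF (edgeR adjusted p = 0.0243) and was at -0.03 ± 0.09, not called, with FGF. Some genes of cholesterol uptake and lysosomal traffic are named after their values were seen. Npc2, which hands cholesterol on in the lysosome, rose by 0.53 ± 0.10 and 0.43 ± 0.10, and Soat1, which esterifies cholesterol, by 0.46 ± 0.12 and 0.68 ± 0.12. Stard3, a late endosomal sterol transfer protein, changed by -0.53 ± 0.12 and -0.62 ± 0.12. These 3 genes passed the edgeR test in both conditions.

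Among 10 genes of SREBP processing and sterol-regulated degradation, 2 rose and 2 fell without FGF, and 3 rose and 1 fell with FGF. Erlin1 rose in both (0.29 ± 0.09 and 0.57 ± 0.09), and the ubiquitin ligase Syvn1 was at 0.09 ± 0.07, not called, without FGF and rose by 0.39 ± 0.07 with FGF. Of 7 genes of the LXR receptors and cholesterol efflux, 1 rose and 2 fell without FGF, and 2 rose and 2 fell with FGF. Those that fell were Arl4c (-0.75 ± 0.06 and -0.95 ± 0.06) and Mylip, a ubiquitin ligase (-1.51 ± 0.19 and -1.14 ± 0.18). The genes that rose, named after their values were seen, were Abcg1, a sterol efflux transporter, in both conditions and Nr1h3, which encodes LXR alpha, with FGF (0.81 ± 0.31, edgeR adjusted p = 0.0498). Abcg1 had 1 to 6 counts in each of the 6 control libraries, 13 to 51 in ETV4 KO libraries without FGF and 60 to 75 in those with FGF (edgeR adjusted p = 0.000647 and 3.5e-05), too few in control for a firm fold change. In the other branches of the mevalonate route, 3 of 13 rose without FGF, and 3 rose and 1 fell with FGF. The dolichol kinase Dolk rose by 0.60 ± 0.11 in both, and Pdss1, of ubiquinone synthesis, by 0.24 ± 0.08 and 0.48 ± 0.08. Of 30 other fatty acid and glycerolipid genes, 9 rose and 8 fell without FGF, and 10 rose and 9 fell with FGF. Aacs, the acetoacetyl-CoA synthetase, rose by 0.67 ± 0.07 and 0.54 ± 0.07, and Hsd17b12, of fatty acid elongation, by 0.56 ± 0.06 and 0.60 ± 0.06. Of 13 fatty acid oxidation genes, 5 rose and 3 fell without FGF, and 4 rose and 4 fell with FGF. Cpt1a, which admits fatty acids to mitochondria, rose by 0.43 ± 0.07 and 0.64 ± 0.07, and the isomerase Eci1 by 0.78 ± 0.14 and 0.52 ± 0.14. Other genes of the carnitine shuttle, named after their values were seen, fell: Slc25a20, the carrier, changed by -1.02 ± 0.20 and -1.11 ± 0.20, and Cpt2 by -0.37 ± 0.12 and -0.53 ± 0.12.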

How the data were processed

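RNA-seq libraries of 4T1 cells were made with a stranded polyA protocol after collagenase digestion of the gels, per the labels' protocols. The authors deposited raw read counts per gene symbol for 12 libraries; the submitters' processing notes name FastQC 0.11.9, STAR 2.7.9a, featureCounts, R 4.1.1 and the builds hg38 and mm10. No source used here gives the annotation release, the strand option or how reads with several matches were handled, so overlapping and paralogous genes are uncertain. Groups came from the labels.

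The main test was edgeR's quasi-likelihood F-test (version 4.0.16, under R 4.3.3), on the counts (filterByExpr, TMM scaling, a mean per group over all 12 libraries, residual df 8). P-values are two-sided and carry Benjamini-Hochberg adjustment over 12079 genes, and a gene was called when its adjusted p was under 0.05. The SE is the log2 fold change divided by the square root of F. CPM is TMM-scaled except for markers, and RPKM uses GENCODE vM21 exon lengths. Of 31017 symbols, 13134 had no count. No pair of replicates agreed within sampling noise (chi-square per degree of freedom 3.26 or higher). The value was 70.6 and 69.5 for the pairs with ETV4 KO replicate 2 without FGF, against 3.41 for replicates 1 and 3. For the pairs with control FGF replicate 2 it was 11.2 and 8.99, against 3.94 for the other pair of that group. The test was checked on simulated counts in which few genes changed, without a trend by length, GC or chromosome. That check does not measure its error where as many genes differ as here.

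The members and lists were chosen with earlier results of these data known. All 36 members are named, Etv4 as the label check, and of each list of other pathway genes up to 2 with the smallest adjusted p in either knockout comparison, except that some genes and list counts are not reported here; other names were added after their values were seen, as stated there. Alternatives were DESeq2 1.42.0, voom from limma 3.58.1, 2 other scalings (RLE, upper quartile), 2 other filters, a replicate block, the compared libraries alone, a test against 1.2-fold, a length and GC correction, and leaving out each library or both ETV4 KO replicate 2 and control FGF replicate 2.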

Additional observations from a re-analysis of the deposited data

How the results depend on the processing

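Of the 36 genes, 9 were called without FGF and 7 with FGF under all 23 other settings. The share of all genes that passed every setting is not given here, so these counts do not set the 36 apart from other genes. A test against a 1.2-fold change gave 9 calls without FGF (6 higher, 3 lower) and 7 with FGF (4 higher, 3 lower), and 0 for FGF in ETV4 KO cells, where 26.1%, 22.2% and 0.58% of all genes were called. A correction of every library for exon length and GC gave 19 genes higher without FGF and 22 with FGF, with 5 called and higher for FGF in ETV4 KO cells. 4485 and 4060 of all 12079 genes were then higher, against 2723 and 2180, and 6.46% were called for FGF in ETV4 KO cells. The correction raised the median log2 fold change of all genes to 0.13 and 0.10, and a knockout effect that follows length or GC is removed with it. With ETV4 KO replicate 2 and control FGF replicate 2 both left out, FGF raised 2 genes in control and 10 in ETV4 KO cells. Of all genes 2.92% and 11.7% were then called, so these counts are to be read against a larger background. DESeq2 called 7 genes, all higher, for FGF in ETV4 KO cells (6.3% of all genes), and a fit of the compared libraries alone called 0 (0.2% of all genes). That fit lost 5 of the 18 ETV4 KO calls without FGF (Mvd, Ggps1, Sqle, Msmo1 and Insig1; 33.1% of all genes called) and gained 4 with FGF (57%). Leaving out 1 library at a time gave 8 to 19 genes higher with FGF in the ETV4 KO comparison, where 32.4% to 58.6% of all genes were called. The count was 9 without control FGF replicate 3 (32.7% of all genes called) and 8 without ETV4 KO FGF replicate 1 (32.5%). For FGF in ETV4 KO cells leaving out 1 library gave 0 to 9 called, 0 to 9 higher and 0 to 1 lower. There 0.981% to 7.76% of all genes were called. Direction reversed with a call for Scd2 without FGF (0.091, adjusted p = 0.0330, both libraries left out) and Fads2 with FGF (0.16, adjusted p = 0.0252, length and GC correction). The causes were not tested.

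Replicate numbers showed no general pairing of the libraries: deviations of same-numbered libraries correlated from -0.09 to 0.34 over 18 pairs, with 2 above 0.1. Those 2 joined ETV4 KO without FGF to control FGF, at replicate 2 (0.34) and replicate 1 (0.21), against 0.07 at replicate 3. Over 36 pairs of unlike number the correlation ran from -0.30 to 0.18, with 4 above 0.1. With the replicate number as a block, 12 genes were higher and 8 lower without FGF, and 14 higher and 6 lower with FGF. Of all genes 47.2% and 40.9% were then called. For FGF in ETV4 KO cells 2 of the 36 were called, and 2.23% of all genes. The difference of effects had 0 calls under each of the 22 settings that apply to it, edgeR, DESeq2 and voom included, with an unadjusted p under 0.05 for 2 genes in the main edgeR test. Precision is limited by 3 libraries per group and by ETV4 KO replicate 2, without which more of the 36 genes were called in both ETV4 KO comparisons (as of all genes, 54.5% and 58.6%) and for FGF in ETV4 KO cells (7.76%).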
